A study of Homo sapiens with 4 samples.

Results

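The nucleosome remodelling and deacetylase complex (NuRD) was examined through the mRNAs of 10 of its subunits, CHD3, CHD4, RBBP4, RBBP7, MTA1, MTA2, HDAC1, HDAC2, GATAD2A and GATAD2B. A peak was assigned to a subunit if the deposited table gave that gene's symbol as its name. These 10 genes stand among 4368 gene names in both tables together, and they held 18 of 4326 peaks in IP replicate 1 and 20 of 4862 peaks in IP replicate 2. All 10 carried at least 1 peak in at least 1 table, as did 4340 of the 20056 annotated protein-coding genes. The peaks mark antibody enrichment for N7-methylguanosine (m7G), the methylated guanine of the mRNA cap, which mapping studies have also placed within transcripts.

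The cells were U2OS, an established human osteosarcoma line, grown in DMEM with serum and without any treatment. Poly(A) RNA from whole cells was used for 2 immunoprecipitated (IP) samples, made with an anti-m7G antibody, and for 2 input samples, made with no antibody. The 2 tables used here list, for each IP replicate, the peaks that the authors called, and give each peak's fold enrichment, p-value and false discovery rate (FDR), all as the authors computed them. The fold is read here as IP over input, which the file headers do not state. The samples come from 1 cell line. Nothing in the labels tells if the replicates were grown as separate cultures, and their spread could be technical only. The tables hold no read counts, so the depth behind a peak is unknown and no interval can be set on a single fold. Of 10 markers of bone-derived or mesenchymal cells 7 carried a shared peak, found in overlapping positions of both tables, while COL1A2, RUNX2 and TWIST1 had no peak. Of the other markers, haematopoietic genes had 0 of 4 and hepatocyte genes 0 of 3, neuronal genes 1 of 4 (SLC17A7) and epithelial genes 2 of 5 (KRT18 and CLDN4). A gene without a peak may still be expressed, since the tables do not measure expression, and in these bulk samples fewer cells with a transcript and less of it per cell could not be told apart.

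NuRD joins ATP-driven nucleosome remodelling and histone deacetylation in a single complex that acts mostly in gene repression and in genome maintenance. CHD3 and CHD4 are alternative remodelling ATPases, HDAC1 and HDAC2 are the deacetylases, MTA1 and MTA2 are the scaffold that holds the deacetylases, RBBP4 and RBBP7 are WD-repeat proteins that bind histones, and GATAD2A and GATAD2B bridge the deacetylase module to the remodeller. Each of these roles is filled by a pair of paralogs, so the pairs are set side by side.

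Peaks were found on 9 of the 10 subunit mRNAs in IP replicate 1, where 15.9% of the 20056 annotated protein-coding genes had a peak, and on 8 of the 10 in IP replicate 2, where 17.4% had one. HDAC2 had no peak in IP replicate 1, and MTA1 and GATAD2A had none in IP replicate 2. A peak was counted as shared if, on its own strand, its blocks had 1 bp or more in common with a peak of the other table, and pairs were kept where each was the other's best overlap. Of the subunit peaks 16 of 18 in IP replicate 1 and 15 of 20 in IP replicate 2 overlapped a peak of the other table, against 62.6% and 55.9% of all peaks. The overlaps made 15 shared peaks on 7 subunits: CHD3 had 5, CHD4 had 4, MTA2 had 2, and RBBP4, RBBP7, HDAC1 and GATAD2B had 1 each. Over all protein-coding genes 10.5% had a shared peak, and of all genes with a peak in either table, 48.4% had a shared one. The subunits were listed with results of these data known, so these counts are descriptions and carry no test.

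**Figure D1:**
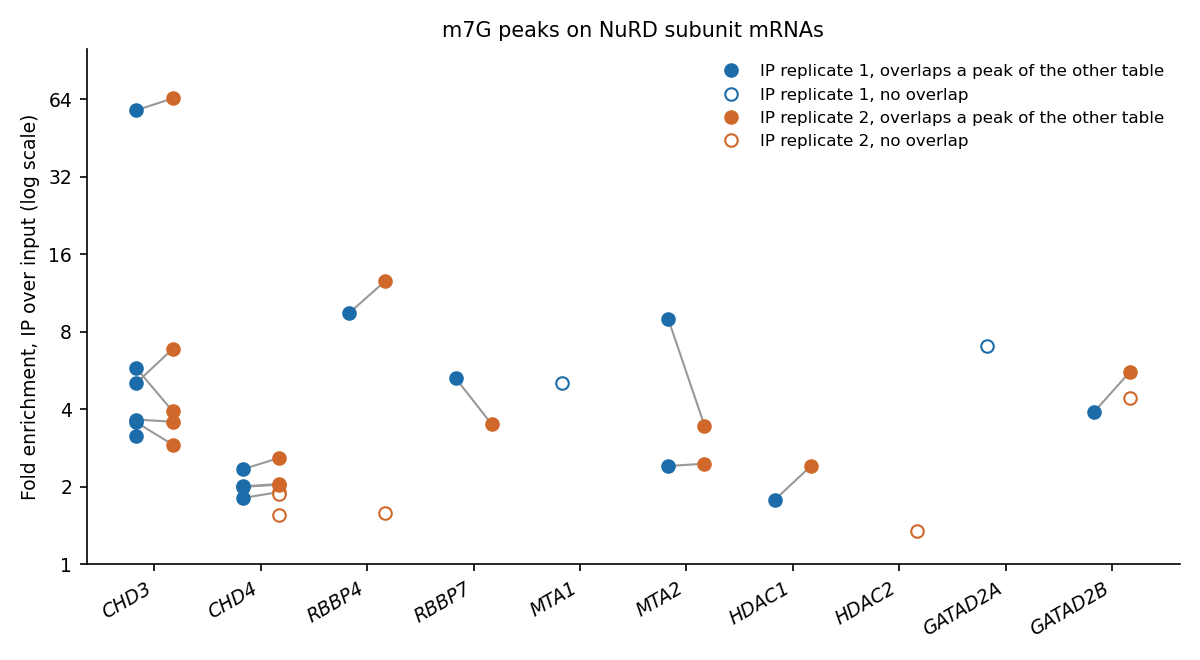
Fold enrichment of IP over input (log scale) of every peak on the 10 subunit mRNAs, 1 point for each peak, with IP replicate 1 in blue and IP replicate 2 in orange. Filled points overlap a peak of the other table, open points do not, and lines join shared peaks. The highest points are those at the CHD3 start (58 and 64.4), and the filled CHD3 point at 3.16 has no line because the long first CHD3 peak of IP replicate 2, which overlaps it, is paired with the start peak.

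CHD3 carried the strongest peak of the complex. It lay at the gene start on chromosome 17 (GRCh38, plus strand), from 7884805 to 7885074 in IP replicate 1, and its 5′ edge was 9 nt inside the annotated start in both tables. The fold was 58 in IP replicate 1 and 64.4 in IP replicate 2, which is 5.93 ± 0.11 on the log2 scale (mean ± SD, n = 2). The gap of 0.15 log2 units between the replicates was larger than that of 28.9% of all 2642 shared peaks. Only 0.532% of the peaks in IP replicate 1 and 0.309% of those in IP replicate 2 had a higher fold, and the peak ranked 7 among the shared peaks by the lower of its folds. Its log10 p was -92.4 and -74.7, so it was also among the more significant peaks of each table (rank 53 of 4326 and rank 95 of 4862).

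The 2 tables did not draw the first CHD3 peak alike. In IP replicate 1 it was a single block of 270 nt. In IP replicate 2 it had 4 blocks, of 279, 113, 171 and 36 nt, and ran from 7884805 to 7890975 across gaps of 4580, 794 and 198 nt, so that the start block and the next blocks stand under a single fold. The last pair of these blocks overlapped the place where IP replicate 1 had a second peak, from 7890627 to 7891005, with a fold of 3.16. For the start peak itself, the overlap was 100% of the single block in IP replicate 1 and 45.1% of the long peak in IP replicate 2. Under a rule of 50% reciprocal overlap the start peak no longer counted as shared. The strongest shared CHD3 peak then averaged 2.56 on the log2 scale. The annotated span of NAA38, a subunit of an N-terminal acetyltransferase, also covers the start block. NAA38 is annotated on the minus strand and the peak is listed on the plus strand. The library kit keeps the strand, per the labels, but how strand entered the authors' counting is not stated in the sources used.

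The other CHD3 peaks were much weaker and were spread along the transcript. The peak from 7895540 to 7897995, at 44.4% of the gene span, had folds of 5.06 and 6.86. The peak starting at 7894446 had 5.78 and 3.94, the peak starting at 7907408 had 3.56 and 2.92, and the peak starting at 7912040, whose midpoint was 641 nt from the gene end, had 3.65 and 3.58. The start peak was thus 10.0 times as high as the highest other shared CHD3 peak of IP replicate 1, the one starting at 7894446. In IP replicate 2 it was 9.39 times as high as the highest other one, which there was the peak starting at 7895540. Among the 412 genes with at least 2 shared peaks the median of the lower of these ratios was 1.35, and CHD3 ranked 7, behind genes such as LAMTOR1 (58.7 and 27.0) and FADS2 (20.8 and 18.0). CHD3 was also 1 of 10 genes with at least 5 shared peaks, where the median gene with a shared peak had 1.

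CHD4, the main remodelling ATPase of NuRD in many cell types, had about as many peaks as its paralog, 4 in IP replicate 1 and 6 in IP replicate 2, but all of them were weak. The strongest began at the gene start on chromosome 12 (minus strand), from 6601981 to 6607373 in IP replicate 1 and from 6601759 to 6607403 in IP replicate 2. Its folds were 2.34 and 2.59 (1.30 ± 0.10 on the log2 scale, n = 2). The block at the start made up 74 of its 569 nt in IP replicate 1 and 104 of its 628 nt in IP replicate 2. Its midpoint was 4914 nt from the start in both, so its fold covers mostly blocks farther inside the gene. The shared peak from 6578480 to 6581351 had 2.01 and 2.05, that from 6599852 to 6600355 had 2.00 and 2.04, and that from 6570470 to 6570620, 463 nt from the gene end, had 1.81 and 1.91. Both peaks found in IP replicate 2 alone were of the same order, 1.88 and 1.56. Every CHD3 peak therefore had a higher fold than every CHD4 peak in the same table, since the lowest CHD3 values were 3.16 and 2.92. Within CHD4 the replicates differed by 0.03 to 0.15 log2 units.

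Low folds did not mean weak calls on CHD4. The peak from 6578480 to 6581351 had a log10 p of -24.3 and -30.2, and 7.10% and 6.62% of all peaks were more significant, although 85.7% and 77.0% had a higher fold. The span of the antisense transcript CHD4-AS1, annotated on the plus strand, covers 2 of the 4 CHD4 peaks in IP replicate 1 and 2 of the 6 in IP replicate 2, and it overlaps 1 block of the peak from 6583286 to 6587470. The span of the uncharacterised transcript LOC124902867, also on the plus strand, overlaps the start peak in part, at its first pair of blocks.

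**Figure D2:**
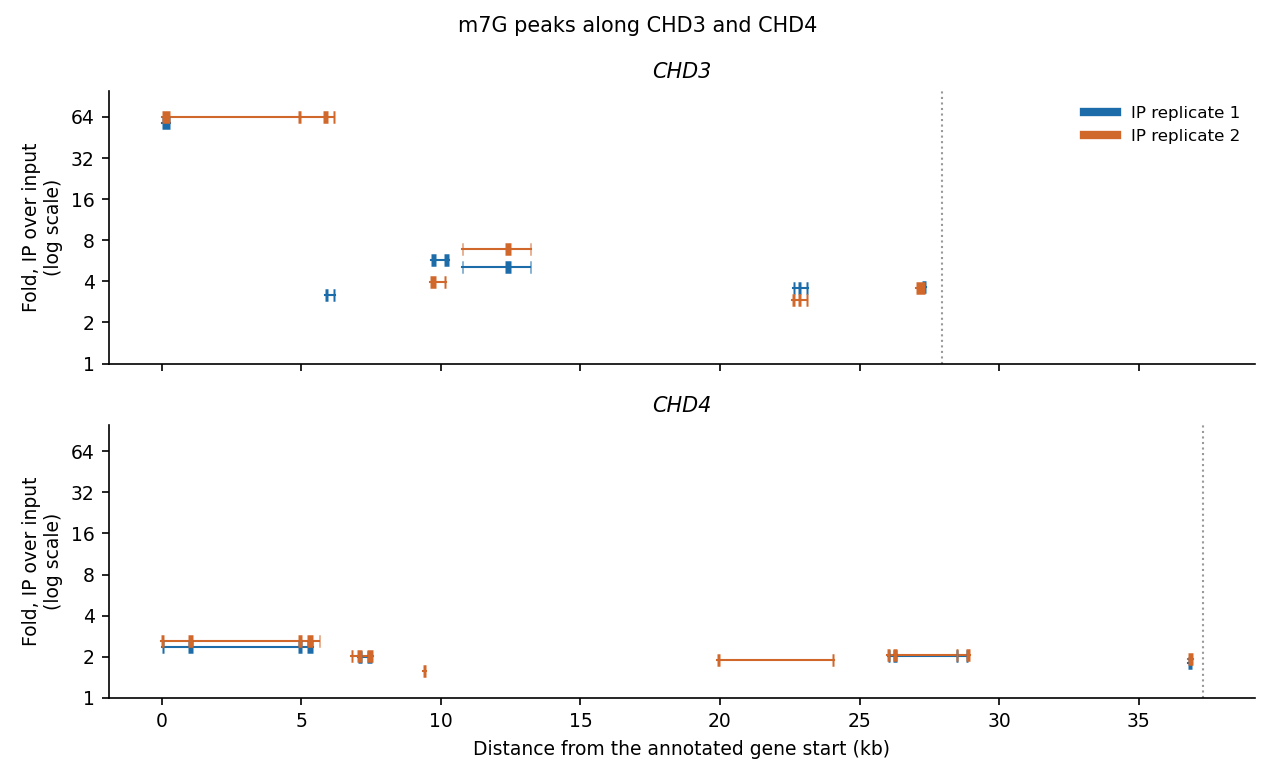
Position (kb from the annotated gene start) and fold of IP over input (log scale) of the peaks on CHD3 (top) and CHD4 (bottom), with IP replicate 1 in blue and IP replicate 2 in orange. Thick bars are the blocks of a peak, thin lines join the blocks of 1 peak, and the dotted line is the annotated gene end. The CHD3 start peak stands at 58 and 64.4, the other CHD3 peaks lie between 2.92 and 6.86, and the CHD4 peaks lie between 1.56 and 2.59.

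The start peak of CHD4 was drawn in blocks, and the sequence at 1 of its block edges is shown to place it. Its first block lay at the gene start, and its second began at 6606451 in both tables after a gap of 848 nt. That base is also an annotated CHD4 start site, so the RefSeq promoter window (chr12:6606402-6606701, GRCh38.p14, minus strand) covers it. The window is printed 5′ to 3′ with the bases inside the peak in capitals, and the pair of bases just before the capitals is ag, the letters at the 3′ end of most introns.
CHD4: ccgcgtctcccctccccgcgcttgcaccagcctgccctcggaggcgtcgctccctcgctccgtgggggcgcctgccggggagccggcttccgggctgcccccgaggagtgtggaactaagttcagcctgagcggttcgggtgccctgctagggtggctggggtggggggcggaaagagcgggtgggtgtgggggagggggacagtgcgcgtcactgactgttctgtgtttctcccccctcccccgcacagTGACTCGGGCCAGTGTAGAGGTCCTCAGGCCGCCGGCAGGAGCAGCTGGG

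RBBP4 carried the most significant peak of the complex, and it lay inside the gene. It had 3 blocks on chromosome 1 (plus strand), 32668995 to 32669132, 32669231 to 32669357 and 32669486 to 32669521, with its midpoint (taken along the joined blocks, as for all peaks) 18035 nt from the annotated start, at 51.5% of the span. The blocks were identical to the base in both tables, which held for 37 of the 353 shared peaks with at least 3 blocks and for 10.2% of all shared peaks. The fold was 9.46 in IP replicate 1 and 12.6 in IP replicate 2 (3.45 ± 0.29 on the log2 scale, n = 2). The gap of 0.41 between the replicates was larger than that of 62.9% of the shared peaks. Its log10 p of -212 ranked 12 of 4326 and its log10 p of -397 ranked 6 of 4862, and in the second table the p-value itself is listed as 0.

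The fold of the RBBP4 peak was less unusual than its significance, since 15.6% and 6.36% of peaks had a higher one. The shared peaks nearest to it in fold, by distance in the plane of both log2 folds (2 samples), were those of ARRB1 (9.25 and 12.7), which encodes a beta-arrestin, SPTBN1 (9.63 and 12.4), which encodes a spectrin, and HDGFL2 (9.40 and 12.2), which encodes a chromatin-associated protein. All 3 lay within 0.05 log2 units of it, and their log10 p ran from -4.42 at ARRB1 in IP replicate 1 to -214 at SPTBN1 in IP replicate 2. The same search around the CHD3 start peak gave PTPN11 (55.5 and 60), a tyrosine phosphatase gene, CELSR3 (55.5 and 50), a cadherin receptor gene, and MDFI (43.2 and 63.3), which encodes an inhibitor of myogenic factors. Their log10 p values were no stronger than -41.7, against -92.4 and -74.7 for CHD3. RefSeq annotates 7 pseudogene copies of RBBP4 and 2 of HDAC1, so reads of these genes could also match copies, and the values of both are uncertain to that extent.

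**Figure D3:**
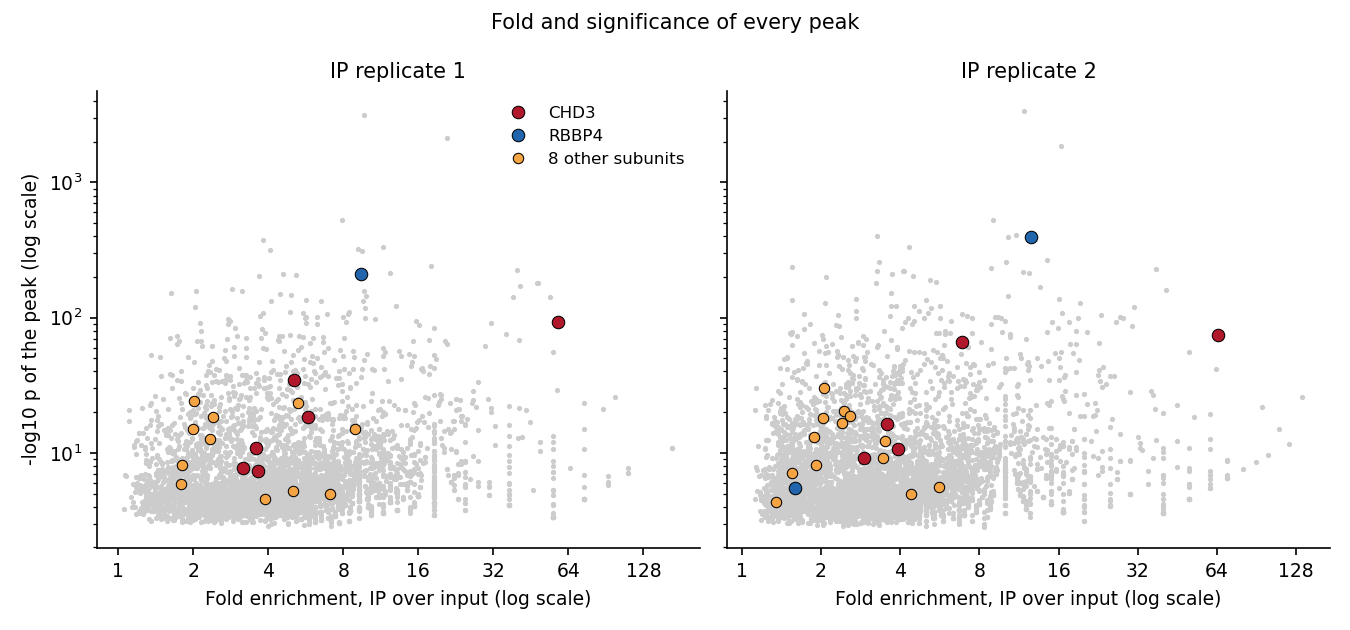
Fold of IP over input against -log10 p (both on log scales) for every peak of IP replicate 1 (left, 4326 peaks) and IP replicate 2 (right, 4862 peaks), with the peaks of CHD3 in red, RBBP4 in blue and the 8 other subunits in orange. The RBBP4 peak at 9.46 and 12.6 is near the top of both panels, and the CHD3 start peak is the subunit peak farthest to the right.

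IP replicate 2 alone held a second RBBP4 peak, near the gene start, with a fold of 1.59 and a log10 p of -5.46. It had 3 blocks of 25, 145 and 11 nt across gaps of 594 and 5365 nt, and its 5′ edge was 90 nt inside the annotated start. In IP replicate 1 no RBBP4 peak overlapped it. RBBP7, the paralog, showed the reverse layout, with its only peak at the gene start on chromosome X (minus strand), from 16869208 to 16870381 in IP replicate 1 and from 16869179 to 16870352 in IP replicate 2. Its folds were 5.29 and 3.50 (2.11 ± 0.42 on the log2 scale, n = 2), a gap of -0.60 that was larger than that of 76.5% of the shared peaks. The log10 p was -23.5 and -12.2. No RBBP7 peak lay farther inside the gene, and no RBBP4 peak at the start was found in both tables.

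Both start peaks were split after the first block, and the sequence at that edge is shown to place it. The last 25 bases of that block are in capitals, and the 20 bases that follow in the genome are in lower case (RefSeq, GRCh38.p14). In both, the pair of bases right after the block is gt, the letters that open most introns. The RBBP4 stretch is chr1:32651298-32651342 on the plus strand, and the RBBP7 stretch is chrX:16870018-16870062 on the minus strand.
RBBP4: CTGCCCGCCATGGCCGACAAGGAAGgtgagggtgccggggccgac
RBBP7: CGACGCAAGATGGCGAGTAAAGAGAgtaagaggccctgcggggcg

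The other edge of the RBBP7 peak lay around the annotated start itself. It began 19 nt before the start in IP replicate 1 and 10 nt inside it in IP replicate 2. The RefSeq promoter window (chrX:16870313-16870612, minus strand, 250 bases before the start and 50 after it) is shown with the 69 bases inside the peak of IP replicate 1 in capitals. Of these, 40 were also inside the peak of IP replicate 2.
RBBP7: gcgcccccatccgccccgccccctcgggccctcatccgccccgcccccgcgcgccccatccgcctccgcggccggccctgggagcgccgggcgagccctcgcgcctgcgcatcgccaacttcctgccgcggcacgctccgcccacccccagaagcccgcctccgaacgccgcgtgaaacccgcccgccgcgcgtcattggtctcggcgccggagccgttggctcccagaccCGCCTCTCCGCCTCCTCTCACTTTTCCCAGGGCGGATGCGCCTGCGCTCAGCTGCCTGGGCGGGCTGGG

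MTA2, the scaffold subunit, had a peak at either end of the gene on chromosome 11 (minus strand). The peak at the start, from 62601602 to 62601840 in IP replicate 1 and from 62601572 to 62601840 in IP replicate 2, had folds of 8.95 and 3.46. This was the widest disagreement among the shared subunit peaks, -1.37 on the log2 scale (mean 2.48 ± 0.97, n = 2), and it was larger than the gap of 95.9% of all shared peaks. The peak toward the gene end, from 62593620 to 62593918, had 2.41 and 2.46, a gap of 0.03, with its midpoint 555 nt from the annotated end. In IP replicate 1 the start peak had the clearly higher fold of both, whereas in IP replicate 2 they were closer. The start peak was the less significant of both in each table, with log10 p of -15 and -9.17 against -18.3 and -20.5.

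The start peak of MTA2 had the same 5′ edge in both tables, 25 nt inside the annotated start, so only the last 25 bases of the RefSeq promoter window (chr11:62601816-62602115, minus strand) belong to it. They are in capitals.
MTA2: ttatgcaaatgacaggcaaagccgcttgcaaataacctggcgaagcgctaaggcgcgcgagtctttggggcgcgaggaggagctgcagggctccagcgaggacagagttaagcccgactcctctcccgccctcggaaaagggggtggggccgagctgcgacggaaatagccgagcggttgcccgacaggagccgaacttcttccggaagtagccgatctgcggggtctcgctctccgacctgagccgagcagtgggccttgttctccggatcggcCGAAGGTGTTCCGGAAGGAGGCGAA

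MTA1, known as a metastasis-associated protein, had a single peak, in IP replicate 1, on chromosome 14 from 105419908 to 105420057 (plus strand). Its 5′ edge was 81 nt inside the annotated start, so MTA1 and MTA2 were both marked at the start in that table. The fold was 5.05 and the log10 p -5.24, and 56.9% of the peaks in the table were more significant. No MTA1 peak was listed in IP replicate 2, where a value below the authors' threshold cannot be read.

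The deacetylase mRNAs had low folds where they had a peak. By the strongest peak of each gene, HDAC1 was the lowest of the subunits with a peak in IP replicate 1, where HDAC2 had none. In IP replicate 2 HDAC2 and then HDAC1 were the lowest of the subunits with a peak. HDAC1 had a shared peak toward the gene end on chromosome 1 (plus strand), from 32332152 to 32332729 in IP replicate 1 and from 32332122 to 32333086 in IP replicate 2, with 1.78 and 2.41 (1.05 ± 0.31 on the log2 scale, n = 2). The peak was drawn as 2 blocks of 120 nt in all in IP replicate 1 and as 3 blocks of 240 nt in all in IP replicate 2, and its log10 p was -5.85 and -16.7. HDAC2 had a single weak peak, in IP replicate 2, with a fold of 1.35 and a log10 p of -4.36, from 113941721 to 113943426 on chromosome 6 (minus strand). Of all peaks there, 97.3% of peaks had a higher fold. It lay at 72.9% of the gene span, and neither deacetylase had a peak at its start.

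GATAD2A and GATAD2B, the bridging subunits, were both marked only toward the gene end, with few and less significant peaks. GATAD2B had a peak in IP replicate 1 from 153806222 to 153806372 on chromosome 1 (minus strand), with a fold of 3.9. In IP replicate 2 a peak from 153806372 to 153806521 had a fold of 5.6. These peaks abut and share 1 base, under 1% of either, so they count as shared by the 1 bp rule and by no stricter rule on overlap or midpoint. IP replicate 2 held another GATAD2B peak from 153809451 to 153809601, with 4.41. GATAD2A had 1 peak, in IP replicate 1, from 19507141 to 19507261 on chromosome 19 (plus strand), 1731 nt from the gene end, with a fold of 7.05. The log10 p values of all 4 peaks lay between -4.58 and -5.57.

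**Figure D4:**
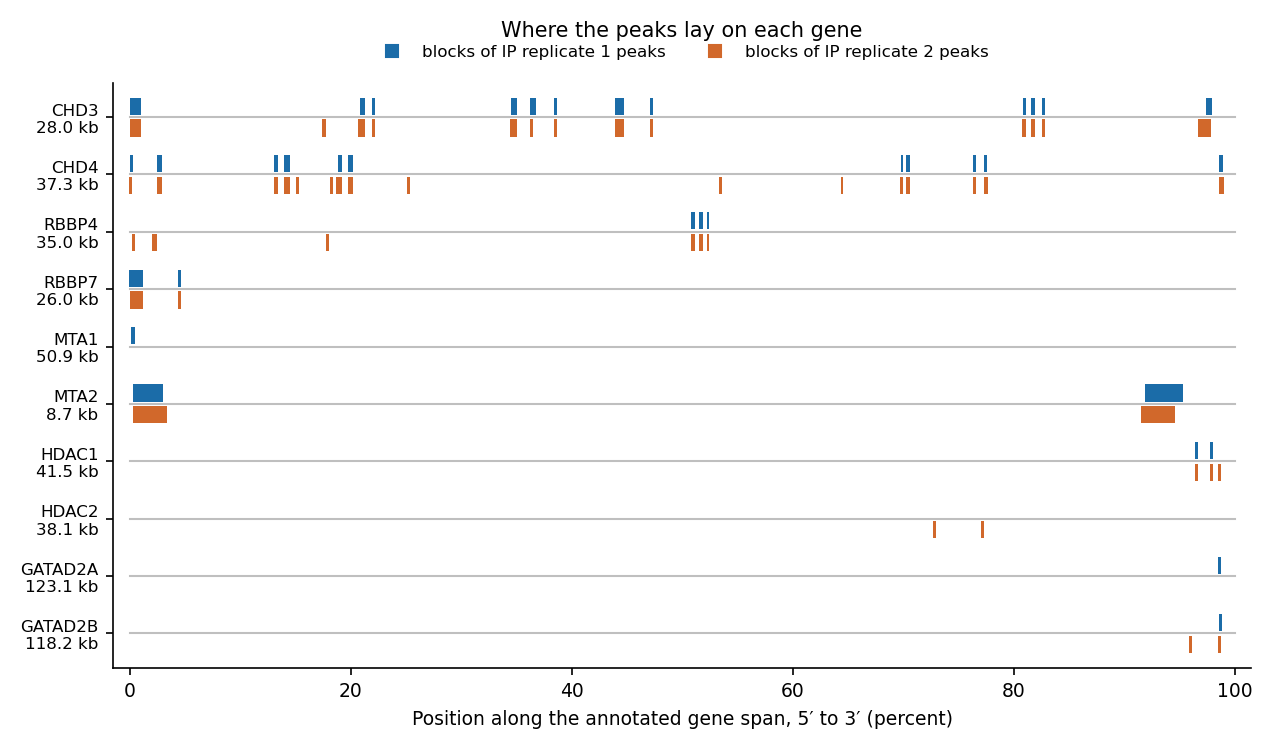
Blocks of the peaks along the annotated span of each gene (percent of the span from the 5′ end, with the span length beside each name), IP replicate 1 above the line in blue and IP replicate 2 below it in orange. Blocks narrower than 0.25% of the span are widened to be visible. CHD3, CHD4, RBBP7 and MTA2 have blocks at the 5′ end in both replicates, and the HDAC1, GATAD2A and GATAD2B peaks lie at the 3′ end.

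The subunit genes could thus be ordered by where they were marked. A peak whose 5′ edge lay within 200 nt of the annotated start was present on 5 of the 10 genes in each table, on CHD3, CHD4, RBBP7 and MTA2 in both, on MTA1 in IP replicate 1 and on RBBP4 in IP replicate 2. The share of all genes with such a peak was not counted, so these 5 of 10 stand without a background. Such peaks made up 5 of 18 and 5 of 20 subunit peaks, against 30.4% and 26.7% of all peaks placed on an annotated gene. By the midpoint instead of the edge it was 4 of 18 and 2 of 20, against 22.5% and 19.0%. Midpoints within 2000 nt of the gene end were found for 6 of 18 and 5 of 20 subunit peaks, against 26.3% and 27.7%. These shares lie on either side of those of all peaks and close to most of them, and nothing about the subunits is read from them. Distances are genomic, and exon, intron and UTR annotation was not used here.

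Many of the subunit peaks were drawn across gaps, since 10 of 18 and 13 of 20 had more than 1 block, against 30.8% and 34.7% of all peaks. Most of the split peaks were on CHD3 and CHD4. Counting split and unsplit peaks alike, these genes together held 10 of the 18 subunit peaks in IP replicate 1 and 11 of the 20 in IP replicate 2. Peaks of 1 gene share its transcript and are not independent.

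Across the 15 shared subunit peaks the replicates differed by a median of 0.29 log2 units, against 0.30 for all shared peaks. The gap was under the overall median for 8 of the 15, and it passed the 95th percentile of all shared peaks, 1.28, at the MTA2 start alone. IP replicate 2 was higher at 10 and lower at 5 of the subunit peaks, while 44.0% of all shared peaks were higher in IP replicate 2. The median of the lower fold was 3.46 for the subunit peaks and 3.52 for all shared peaks. A fold of at least 4 in both tables was reached by 3 of the 15, at CHD3 (2 peaks) and RBBP4, against 42.8% of all shared peaks, and a fold of at least 2 by 13 of the 15, against 79.6%. The medians were thus close, while a smaller share of the subunit peaks had a high fold in both tables, and those were on CHD3 and RBBP4. Most of the 15 peaks are on CHD3 and CHD4 and are not independent within a gene, so this share describes peaks and not subunits.

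**Figure D5:**
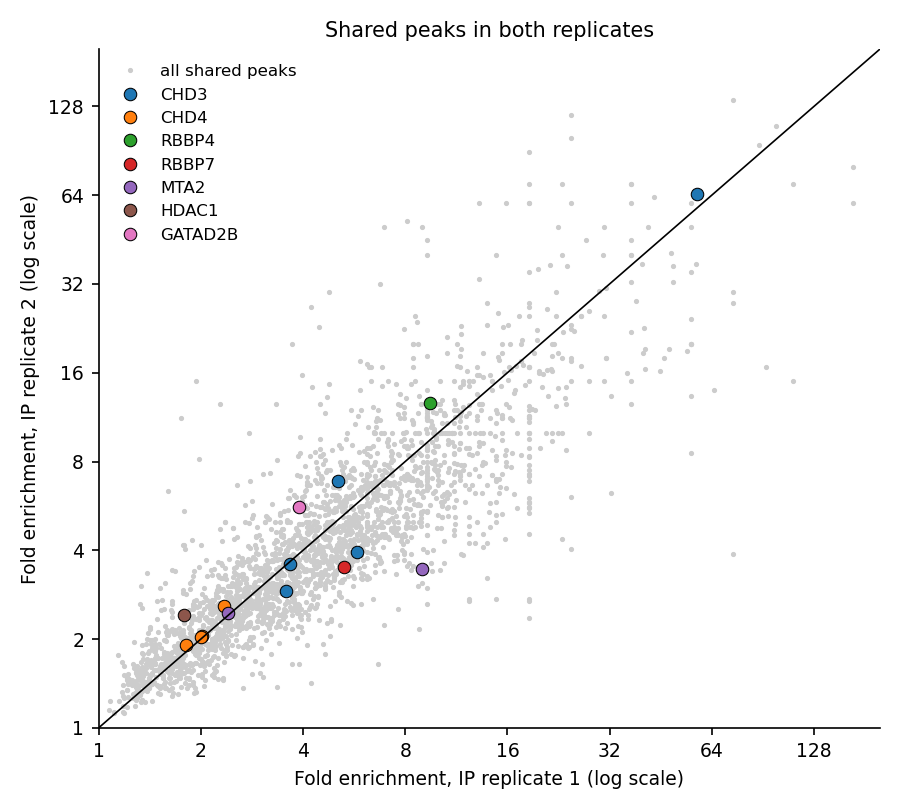
Fold of IP over input of each shared peak in IP replicate 1 (horizontal) and IP replicate 2 (vertical), both on log scales, with all 2642 shared peaks in grey, the 15 subunit peaks in colour and the line of equal folds. The MTA2 point at 8.95 and 3.46 lies farthest from the line among the subunit peaks, and the CHD3 start peak at 58 and 64.4 lies close to it.

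Ranked by the mean log2 fold of its strongest shared peak, CHD3 came first with 5.93 ± 0.11, followed by RBBP4 with 3.45 ± 0.29, MTA2 with 2.48 ± 0.97, GATAD2B with 2.22 ± 0.37 and RBBP7 with 2.11 ± 0.42, then CHD4 with 1.30 ± 0.10 and HDAC1 with 1.05 ± 0.31 (SD, n = 2 for each). The folds of CHD3 in both replicates were above those of every other subunit, and RBBP4 was above the 5 that follow in both. The values of MTA2, GATAD2B and RBBP7 overlapped between replicates, as did those of CHD4 and HDAC1. No test of these differences was run. The order depends on the peak chosen for each gene. With the median over shared peaks taken in each table and then averaged, CHD3 had 2.16, below RBBP4 (3.45) and GATAD2B (2.22). The median of the mean log2 folds of the CHD3 peaks was instead 2.25, so the order of CHD3 and GATAD2B depends on that choice. Under 50% reciprocal overlap CHD3 averaged 2.56, also below RBBP4. With the most significant peak of each gene MTA2 averaged 1.28 and CHD4 1.02, so that MTA2 came after GATAD2B and RBBP7, and CHD4 after HDAC1.

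The remaining NuRD genes and the complexes that share its subunits were then counted. Of 12 other NuRD subunits and partners, 3 had a peak in IP replicate 1, 8 in IP replicate 2 and 3 a shared peak. MBD2, the methyl-CpG binding subunit, had 17.6 and 17.5 near its gene start, its relative MBD3, which marks the alternative form of the complex, had 8.84 and 7.65 with its midpoint 208 nt from the start, and the zinc finger partner ZNF687 had 3.36 and 3.33. IP replicate 2 minus IP replicate 1 was -0.01 at MBD2 and ZNF687 and -0.21 at MBD3 on the log2 scale, so these replicates lay close together. MTA3, CDK2AP1, ZMYND8 and ZNF532 had no peak in either table. The span of the small RNA gene SNORA37 lies within the genomic extent of the MBD2 peak but in the gap between its blocks.

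Histone deacetylase complexes other than NuRD had shared peaks on 4 of 14 genes (SIN3) and on 5 of 10 genes (CoREST). The SIN3 genes included SAP30L (7.62 and 8.46), ING2 (13 and 5) and SAP30 (4.63 and 4.47), all accessory subunits, while SIN3A and SIN3B, the scaffolds, had no peak. The CoREST genes included the scaffold RCOR1 (9.25 and 4.86), GSE1 (5.98 and 4.44) and the histone reader PHF21A (4.04 and 7.73). Of 18 genes from other complexes that contain RBBP4 or RBBP7, 6 had a shared peak, among them AEBP2 (15.5 and 22.9) and SUZ12 (9.66 and 10) of the Polycomb complex PRC2 and BPTF (21.6 and 9.37) of the remodeller NURF. ING2, BPTF, PHF21A and RCOR1 differed between replicates by -1.38, -1.20, 0.94 and -0.93 log2 units. Of 5 other CHD remodellers 1 had a peak in IP replicate 1, 4 in IP replicate 2 and 0 a shared peak, and HDAC3 and HDAC8 had no peak. In all 18 of 61 related genes (29.5%) had a shared peak, against 7 of the 10 subunits and the 10.5% of all protein-coding genes given above. Expression is not measured in the tables, and its part in these counts was not tested.

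The RefSeq promoter table held 14 windows of 300 bases for the 10 genes. The GA-rich hexamer GANGAN, searched on both strands with overlapping matches allowed, was in 12 of the 14 (85.7%), against 89.2% of all 35116 windows of the same length. In the 50 bases after the start, read on the RNA strand, it was in 1 of the 14 (7.14%), against 19.6%. None of the stretches in capitals above held it on the RNA strand. The window of CHD3 in that table belongs to another start site, 7888789, and no base of it lay in a CHD3 block, so no sequence of the CHD3 start peak or of the internal RBBP4 peak is printed.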

How the data were processed

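Poly(A) RNA of U2OS cells was profiled in 2 IP and 2 input samples, grouped by their titles. The aligner STAR and the build GRCh38 are taken from the submitters' processing notes. Which program called the peaks, and with what settings, was not given. The input libraries enter through the authors' peak calls. Per the file headers, the authors deposited for each peak a p-value, log10 values of the p-value and the FDR (score values), and a fold enrichment, a linear ratio. It was taken as IP over input, an assumption, since neither its definition nor its scaling for library size is given. The weakest FDR was 0.049 and 0.0479, so the tables hold only peaks past a threshold.

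Overlaps, ranks, distances to annotated gene ends and the counts were computed here. Gene names were matched to RefSeq (GRCh38.p14) by symbol or synonym within 2000 nt of the gene, which left 6 and 8 peaks unmatched. The overlap search was tested on simulated data. Subunits, lists and tests were chosen with earlier results of these data known. Genes outside the complex were named by a rule: up to 3 in each list by the lower fold of both replicates, and the 3 shared peaks nearest in fold to the strongest of CHD3 and of RBBP4. LAMTOR1, FADS2 and the genes listed without a peak were named after their values were seen. Coordinates are 1-based. As alternatives, sharing was redefined by 50% reciprocal overlap or by midpoints at most 100 nt apart, the weaker 50% of each table or low folds were dropped, each replicate was left out, and folds were summarised in other ways. Python 3.11.15, pandas 2.3.3, numpy 2.4.6 and matplotlib 3.10.9 were used.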

Additional observations from a re-analysis of the deposited data

How the results depend on the processing

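The number of shared subunit peaks was 15 and ranged from 10 to 14 with 50% reciprocal overlap (12), midpoints within 100 nt (10), the more significant 50% of each table (14) and a fold of at least 2 (13). A fold of at least 4 left 3 peaks on 2 subunits, CHD3 and RBBP4. All peaks of a single table numbered 18 to 20 on 8 to 9 subunits. The subunits with a shared peak were 7. They were 6, without GATAD2B, under 50% reciprocal overlap, the midpoint rule and the more significant 50%, and 6, without HDAC1, with a fold of at least 2. Assignment by gene span gave 7. With 50% reciprocal overlap or the midpoint rule the first CHD3 peak, whose extent differed between tables, was no longer shared, and under the overlap rule the strongest shared CHD3 value became 2.56 on the log2 scale, against 5.93, below RBBP4. With the median over shared peaks, taken in each table and then averaged, CHD3 was 2.16 and CHD4 1.02. With the lowest FDR MTA2 was 1.28 and CHD4 1.02. The median over subunits of the mean log2 fold was 2.22 and lay between 2.11 and 2.29 under the other summaries. It became 0.24 when each fold was divided by the median fold of its table's shared peaks, by construction. Subunit peaks near the start numbered 6 by midpoint, 6 within 500 nt and 10 by the nearest edge. Related genes with a peak numbered 18 when shared, 14 with 50% reciprocal overlap, and 21 to 30 in a single table. No paired analysis was possible because the input samples have no table here and each IP table is already set against input. Depth is unknown, so a subunit with no peak in a table cannot be called unmarked.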

Other observations

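High folds in both tables fell on a limited set of repeated values. Among the 282 peaks with a fold of at least 16 in IP replicate 1 there were 79 distinct values, and 18.5 was given to 67 peaks, 55.5 to 26 and 37 to 21. Among the 232 such peaks in IP replicate 2 there were 71 distinct values, led by 16.7 with 25 peaks, 20 with 22 and 40 with 20. The CHD3 start peak held none of these repeated values, since 1 peak in IP replicate 1 had 58 and 1 peak in IP replicate 2 had 64.4. PTPN11 and CELSR3, the closest shared peaks to CHD3 in fold, both had the repeated value 55.5 in IP replicate 1. The read counts behind the repeated values are not in the tables used here.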
